A study of Chlamydomonas reinhardtii with 12 samples.

Results

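In the green alga *Chlamydomonas reinhardtii*, 100 of the 17741 genes in the count table were set apart because their transcripts dropped strongly under high light (HL) and dropped by a similar amount in the *phot* mutant and in the wild type (WT). Levels were taken as CPM, the count of a gene divided by the total of its library and scaled to counts per 1000000. The light response was log2(mean CPM + 1) in HL minus the same quantity in low light (LL), called P in *phot* and W in WT. Genes had to have P and W both under -0.5 and less than 0.5 apart, which 972 genes did, and the 100 with the most negative sum of W and P were taken. The light responses therefore chose these genes, and they are given below as a description without a test. All 100 passed the filter on low counts, which left 14251 genes for testing.

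The samples were *phot*, a single mutant strain labelled as a knockout of *PHOT1*, and CC-125, the WT. Per the labels, cultures were grown in an acetate medium (TAP) under 15 units of light (µmol of photons per square metre and second). The study's methods for RNA sequencing give 5 units for this step. Cells were then moved to a minimal medium without acetate (HSM) and left to acclimate at 5 units, the LL condition. RNA was taken there and after 60 min at 300 units, the HL condition, which gave 3 libraries each of *phot* HL, *phot* LL, WT HL and WT LL. Libraries are called A, B and C within a group, and these letters pair nothing across groups.

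*PHOT1* encodes phototropin, a blue-light receptor kinase that in this alga takes part in switching on photoprotection genes such as *LHCSR3*. Strong light also draws down CO2 and changes the redox state of the photosynthetic chain, and cells answer by raising genes of energy quenching and of the CO2-concentrating mechanism (CCM), which supplies RuBisCO with CO2. Symbols and functions were at hand for few of these genes, because the annotation used here lists them by locus number alone, so roles are given only where the study's gene lists supply a family or a name.

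Library totals lay between 27136674 and 33906264 counts. *PHOT1* had 115 to 181 counts in the 6 *phot* libraries, against 6074 to 8263 counts in the 6 WT libraries. TMM scaling factors, which correct for the composition of a library, were 1.13 to 1.23 in *phot* HL, 1.09 to 1.21 in *phot* LL, 0.885 to 1.00 in WT HL and 0.660 to 0.863 in WT LL. They differed by strain, and in WT also by light, so a comparison between strains or between responses moves with the scaling. Values per library below are CPM by library total, while fitted fold changes use TMM.

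The summed level of the 100 genes was 717, 734 and 606 CPM in *phot* HL, against 4109, 3643 and 4088 CPM in *phot* LL. In WT it was 241, 416 and 308 CPM in HL, against 2206, 2198 and 1527 CPM in LL. The sums averaged 686 ± 69.5 CPM in *phot* HL and 3947 ± 263 CPM in *phot* LL, and 322 ± 88.5 CPM in WT HL and 1977 ± 390 CPM in WT LL (SD, n = 3 each). HL and LL libraries were far apart in both strains, library B stood highest among WT HL, and library C stood lowest among WT LL. In RNA from whole cultures, fewer cells with a transcript and less of it per cell cannot be told apart. One gene, Cre16.g652300, made up 533 CPM of the *phot* LL mean and 13.1 CPM of the WT LL mean.

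**Figure D1:**
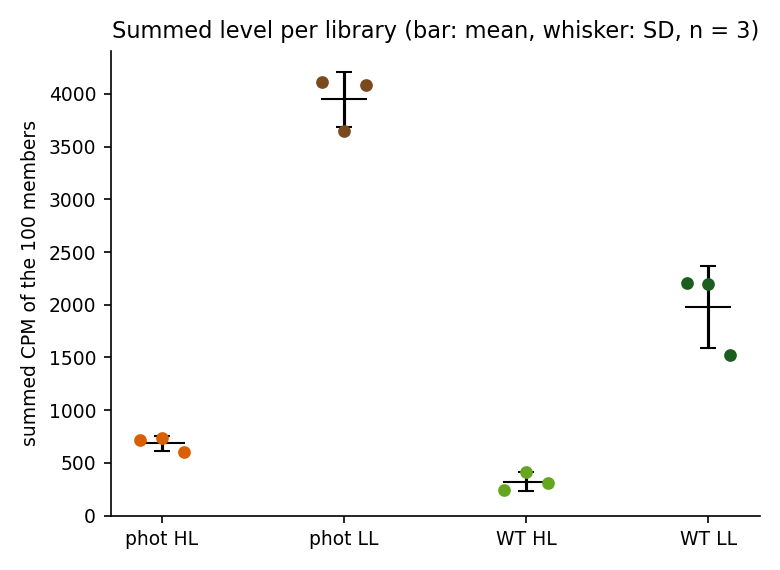
Summed CPM of the 100 genes (vertical axis, by library total) in each library of *phot* HL, *phot* LL, WT HL and WT LL, with points for libraries, bars for the group mean and whiskers for the SD (n = 3). The HL libraries lie between 241 and 734 CPM and the LL libraries between 1527 and 4109 CPM.

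P ran between -4.59 and -1.41 with a median of -1.88, and W between -4.73 and -1.36 with a median of -1.91. Expressed as the HL mean over the LL mean, the median gene kept 20.7% of its LL level in *phot* (2.16% to 34%) and 16.2% in WT (2.25% to 34%). Each of the 100 genes had every HL library under every LL library in both strains. That was so for 14.9% of the tested genes, and nothing is read from the contrast, since the selection used it. Only 6 genes had both responses under -3, and 30 had both under -2.

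**Figure D2:**
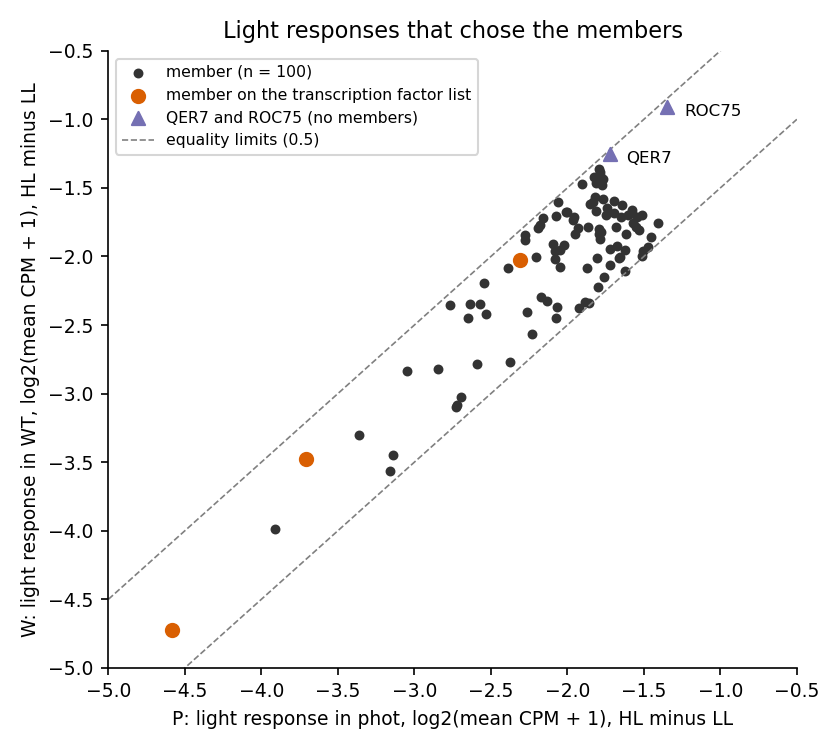
Light response in *phot* (P, horizontal axis) and in WT (W, vertical axis), both as log2(mean CPM + 1) in HL minus LL, for the 100 genes (dark points), with the 3 on the transcription factor list in orange and *QER7* and *ROC75*, which were not selected, as triangles. The dashed lines mark the 0.5 limit on the difference, and the selection forces all points between them.

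The list of transcription factors held 3 of the 100 genes, at ranks 1, 3 and 27. Cre16.g677382 (chromosome 16, 3519678 to 3525978), on the study's list as a MYB protein, a family of DNA-binding transcription factors that includes the CCM regulator LCR1, had the most negative sum of responses. Its transcripts were at 5.07, 7.4 and 3.46 CPM in *phot* HL, against 125, 165 and 163 CPM in *phot* LL. In WT they were at 0.619, 5.15 and 2.66 CPM in HL, against 100.3, 110.2 and 89.1 CPM in LL. In both strains all HL libraries were far under all LL libraries, and WT HL library A was well under the other libraries. The fitted HL versus LL log2 fold change was -4.84 ± 0.40 in *phot* and -5.42 ± 0.42 in WT (SE).

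Cre03.g146267 (chromosome 3, 762759 to 769833), at rank 3, is listed as a C3H protein, a zinc-finger family whose members bind RNA or DNA. It had 15.1, 22.3 and 14.3 CPM in *phot* HL, against 239, 224 and 249.8 CPM in *phot* LL. It had 4.37, 28.1 and 14.4 CPM in WT HL, against 216, 198 and 138 CPM in WT LL. The strains overlapped in HL, where the WT libraries were the more scattered, and the fitted response was -3.80 ± 0.40 in *phot* and -3.84 ± 0.41 in WT (log2, SE).

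The gene at rank 27, Cre03.g149350 (chromosome 3, 1153289 to 1162645), belongs to the RWP-RK family, which in this alga includes the nitrate regulator NIT2 and the mating-type factor MID. It had 0.208, 0.147 and 0.144 CPM in *phot* HL, which is 4 to 6 counts per library, against 4.22, 4.27 and 5.82 CPM in *phot* LL. In WT it had 0.546, 4.48 and 1.63 CPM in HL, against 15.4, 12.5 and 8.45 CPM in LL. The level was under that of WT in each condition, and its similar W (-2.03) and P (-2.31) depended on the added 1 CPM. As a share of LL it kept 3.49% in *phot* and 18.3% in WT.

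The 3 genes were 0.783% of the 383 tested transcription factors, close to the 0.702% that the 100 made up of all tested genes. Of the 383, 86 (22.5%) were lower in HL in both strains by edgeR's quasi-likelihood test, where the share over all tested genes was 19.8%, and 62 (16.2%) were higher in both, where it was 22.9%. By family, 4 of 12 tested MYB, 3 of 23 C3H and 4 of 11 RWP-RK genes were lower in both strains, against 1, 2 and 1 that were higher in both. The list held 25 genes inside the limits on both responses, or 6.14% of its entries where 5.48% of all genes were, of which 22 fell short of the rank limit.

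Of those 22, 6 belonged to the SBP family, described here because it was seen to recur among them, the squamosa promoter-binding proteins, which in this alga include the copper regulator CRR1. Among 24 tested SBP genes 9 (37.5%) were lower in HL in both strains, where 19.8% of all tested genes were, and 2 were higher in both. *QER7* (Cre01.g043550), an SBP gene studied as a regulator of photoprotection and picked here after its values were seen, came at rank 127. It had 1.32, 0.973 and 0.866 CPM in *phot* HL, against 5.43, 5.49 and 6.43 CPM in *phot* LL, a P of -1.72. It had 1.89, 1.98 and 1.73 CPM in WT HL, against 6.12, 7.02 and 4.41 CPM in WT LL, a W of -1.26. HL libraries were under LL libraries in both strains, and in HL the *phot* libraries were all under the WT libraries. In LL the strains overlapped. Averaged over light, *phot* versus WT was -0.86 ± 0.12 (log2, SE; adjusted p = 1.02e-05, edgeR, TMM factors). The size of this value depends on the scaling, and other factors were not tried for this gene. By library total the LL means were close, at 5.78 CPM in *phot* and 5.85 CPM in WT. The HL means were 1.05 CPM in *phot* and 1.87 CPM in WT. The study reports the opposite direction by qPCR, with *QER7* overexpressed in *phot*. Those cultures were synchronized to light and dark and moved to HL after the dark phase, unlike these. *ROC75* (Cre02.g083750), a circadian regulator of the G2-like family picked in the same way, came at rank 296 with a P of -1.35 and a W of -0.91. Its level differed between the strains, with *phot* versus WT at 0.93 ± 0.09 averaged over light (log2, SE; adjusted p = 3.03e-07, edgeR, TMM factors). The study also reports a significant strain difference for *ROC75* in its RNA sequencing.

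None of the 54 tested photoprotection genes and 1 of the 72 tested CCM genes was among the 100. At the share of 0.702% among all tested genes, lists of this size would hold about as few, so these counts say nothing about the lists. In both strains 9 photoprotection genes (16.7%) were lower in HL and 20 (37%) were higher, and 9 CCM genes (12.5%) were lower and 31 (43.1%) were higher, by the same edgeR test. Over all tested genes 19.8% were lower in both strains and 22.9% were higher. The one CCM entry, Cre16.g652800 (chromosome 16, 1477826 to 1480191), is carried on the study's list by its locus number without a symbol. It had 6.67, 6.28 and 6.50 CPM in *phot* HL, against 35.2, 34.9 and 43.2 CPM in *phot* LL. In WT it had 0.0728, 0.305 and 0.233 CPM in HL, or 2 to 10 counts per library, against 7.48, 7.15 and 6.99 CPM in LL. At each light level all *phot* libraries were above all WT libraries, and the gene kept 17.2% of its LL level in *phot* and 2.82% in WT.

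Of the 15 genes with the most negative sums, 12 are on none of the lists. Cre03.g192050, at rank 2, had 0.799, 0.855 and 0.758 CPM in *phot* HL, against 28.3, 26.2 and 23.9 CPM in *phot* LL. It had 1.31, 2.13 and 1.40 CPM in WT HL, against 40.9, 45.6 and 34.7 CPM in WT LL. It was tight within each group, lower in *phot* at both light levels, and kept 3.07% of LL in *phot* and 3.99% in WT. Cre10.g425050, at rank 5, had 19.6, 18.8 and 15.2 CPM in *phot* HL, against 204, 185 and 188 CPM in *phot* LL. Its WT libraries had 10.05, 17.5 and 10.8 CPM in HL, against 173, 142 and 90.1 CPM in LL. Its responses were close to each other on every scale used, with fitted values of -3.44 ± 0.19 in *phot* and -3.66 ± 0.19 in WT (log2, SE), and it alone of these 15 stayed inside the limits under all 17 other settings and library choices of the rule.

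The others of this group varied in how far the strains differed. Cre12.g558300 kept 10.4% of its LL level in *phot* and 7.62% in WT, with WT HL libraries at 3.39, 14.6 and 6.91 CPM, library B again the highest. Cre13.g604050 kept 10.6% in *phot* and 9.01% in WT. Cre12.g489300 kept 14.7% in *phot* and 10.4% in WT. All 3 had lost most of their transcript in HL in each strain. Cre10.g456600 kept 8.57% in *phot* and 5.74% in WT. Cre06.g277050 kept 11.9% in *phot* and 3.67% in WT. Cre16.g673100 kept 13.8% in *phot* and 10.9% in WT. Cre16.g652300 kept 11.2% in *phot* and 2.25% in WT, and Cre12.g489650 kept 13.1% in *phot* and 6.32% in WT. The direction of the gap was turned round in Cre06.g261400 and Cre11.g467605, which kept more in WT. Cre06.g261400 kept 6.37% in *phot* and 10.9% in WT, and Cre11.g467605 kept 15.6% in *phot* and 17.5% in WT.

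**Figure D3:**
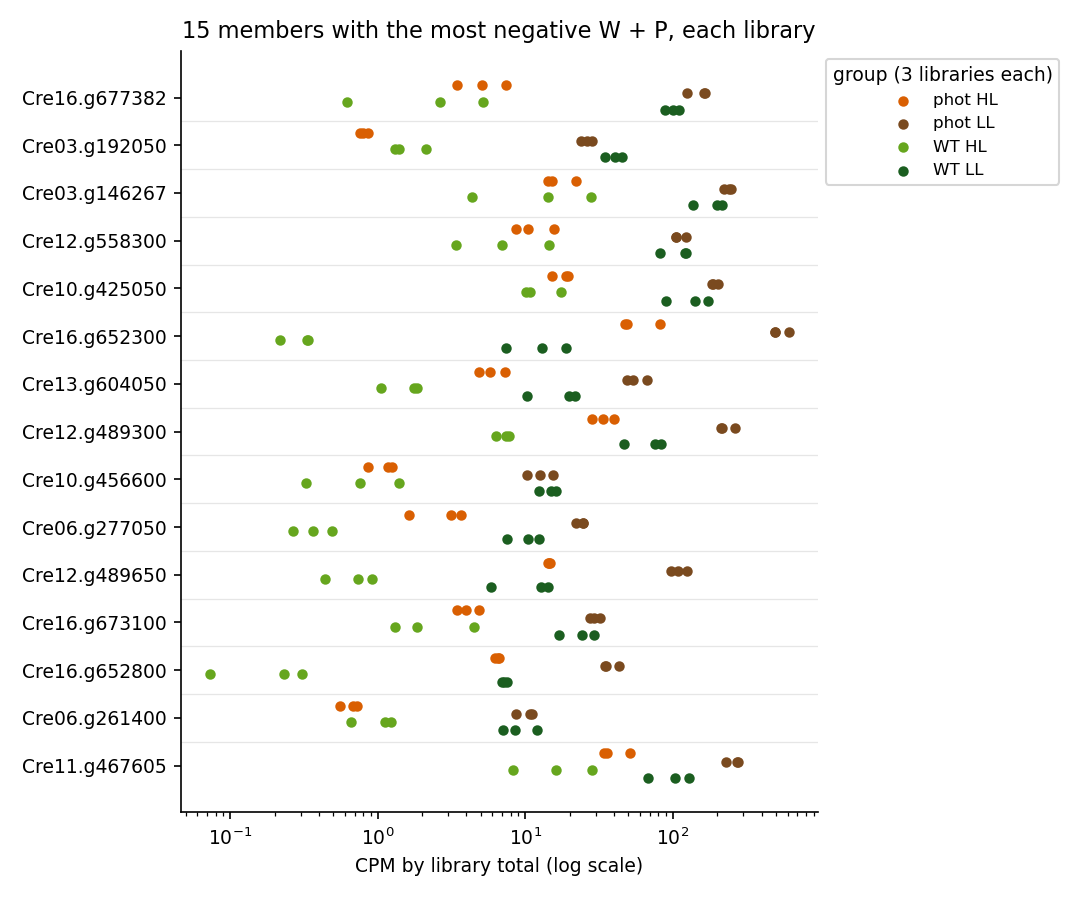
CPM by library total (horizontal log axis) of the 15 genes with the most negative sum of responses, 1 row a gene, with 1 point per library for *phot* HL, *phot* LL, WT HL and WT LL (n = 3 each). HL points lie left of LL points of the same strain in every row. All *phot* points lie right of the WT points of the same light in Cre16.g652300, Cre13.g604050, Cre12.g489300, Cre06.g277050, Cre12.g489650, Cre16.g652800 and Cre11.g467605. In Cre03.g192050 they all lie left of them.

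The similarity of the responses held on the scale of the rule and less on others. The median of W minus P was 0.002. In 36 genes the WT HL mean was under 1 CPM, in 16 the *phot* HL mean was, and in 8 both were, and there the added 1 CPM sets a floor to the response. With no CPM added, the median log2 ratio of HL to LL was -2.27 in *phot* and -2.63 in WT. The gap between the strains then stayed within 0.5 in 56 genes and went over 1 in 18, of which 3 had the deeper decline in *phot* and 15 in WT. In the TMM-scaled fit the median response was -2.28 in *phot* (-5.50 to -1.57) and -2.89 in WT (-5.72 to -1.80), and the response in *phot* minus that in WT had a median of 0.54. By that measure 43 genes stayed within 0.5, 51 were above 0.5 and 6 under -0.5, and 80 were positive. Over all tested genes 46% were within 0.5 and 45.3% positive, and among those that met the limits with a smaller sum 59.9% were within 0.5 and 83.6% positive. Among the 100 genes chosen by the mirrored rule, raised in HL in both strains, 82 were within 0.5 and 64 positive. With TMM factors the share of the 100 lowered genes within 0.5 was near that of all tested genes. Nothing is read from this, since the rule limited the difference in response. With library totals in the fit the median was 0.28 and 57 stayed within 0.5. The share over all tested genes was not taken at that scaling. Without WT HL library B the median was 0.81 and 27 stayed within 0.5.

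Membership moved accordingly. With TMM-scaled CPM in the rule 66 of the 100 stayed inside the limits on both responses. Of the 15 at the head of the ranking 8 did, and the MYB and C3H genes were among these. Under each of the 5 other scalings, pseudocounts and averages of the rule 33 genes stayed inside, and 26 also stayed inside when any 1 library was left out.

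The strains were then compared at the level of expression, with *phot* versus WT averaged over HL and LL, which the selection did not use directly. It is not fully separate from it, since the added 1 CPM ties the size of a response to the level. By edgeR's quasi-likelihood test (adjusted p under 0.05, Benjamini-Hochberg), 52 of the 100 genes were higher in *phot*, where 46% of all tested genes were, and 23 were lower in *phot*, where 33.6% of all were. The other 25 did not pass. The median log2 fold change was 0.48 over the 100 genes and 0.15 over all tested genes. Among the 833 tested genes that met the same limits with a smaller sum, 53.7% were higher and 24.7% lower, with a median of 0.39, so the shares among the 100 were near those of the other genes lowered by light in both strains.

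Larger differences were counted apart. In 29 of the 100 the log2 fold change was above 1 and past the threshold, where 15.8% of all tested genes were, and in 12 it was under -1, where 13.7% were. In 43 genes the *phot* libraries were above all WT libraries in HL and in LL after TMM scaling (30% of all tested), and in 18 they were under them (21.1% of all). Among the 833 tested genes that met the same limits with a smaller sum, 27.4% were above 1 and 10.7% under -1. The *phot* libraries were above all WT libraries in 44.1% of these 833, so the shares among the 100 were near theirs. When library totals replaced the TMM factors, 67 of the 100 genes were higher and 13 lower, where 64.4% and 19.2% of all tested genes were. That scaling took 10 genes out of those called lower and added 15 to those called higher. The median over all tested genes moved to 0.59 and that over the 100 to 0.92, so the gap between both medians stayed.

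Cre16.g652300 (chromosome 16, 1415122 to 1420243) had the largest strain difference of the 100. It had 81.9, 49.1 and 47.7 CPM in *phot* HL, against 0.218, 0.335 and 0.332 CPM in WT HL, where 6 to 11 counts were recorded per library. In LL it had 611, 496 and 493 CPM in *phot*, against 7.44, 18.9 and 12.9 CPM in WT. Even the HL libraries of *phot*, after the decline, were above every LL library of WT. The averaged log2 fold change was 6.04 ± 0.25 (SE; adjusted p = 2.93e-11, edgeR quasi-likelihood, higher in *phot* in 6 of 6 libraries), made of 7.31 ± 0.41 in HL and 4.76 ± 0.30 in LL.

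The next were of like kind. Cre12.g489650 (chromosome 12) had 14.2, 14.7 and 14.4 CPM in *phot* HL, against 0.437, 0.914 and 0.731 CPM in WT HL. In LL it had 124, 97.2 and 109 CPM in *phot*, against 12.9, 14.2 and 5.87 CPM in WT, and its averaged log2 fold change was 3.41 ± 0.15 (SE; adjusted p = 5.91e-11, edgeR). Cre09.g402293 (chromosome 9) had 4.03, 5.63 and 4.15 CPM in *phot* HL, against 0.146, 0.183 and 0.133 CPM in WT HL. The strains did not overlap in either gene, in HL or in LL. Cre09.g402293 had 29.3, 31.9 and 40.3 CPM in *phot* LL, against 4.31, 4.58 and 5.70 CPM in WT LL, an averaged log2 fold change of 3.37 ± 0.19 (SE; adjusted p = 5.82e-10, edgeR).

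The CCM-list gene Cre16.g652800, whose libraries are given above, came next with an averaged log2 fold change of 3.21 ± 0.14 (SE; adjusted p = 4.42e-11, edgeR), made of 4.61 ± 0.24 in HL and 1.80 ± 0.14 in LL. Cre16.g686846 (chromosome 16) had 3.16, 4.45 and 4.08 CPM in *phot* HL, against 0.0364, 0.335 and 0.0997 CPM in WT HL, 1 to 11 counts per library. It had 15.9, 13.1 and 15.1 CPM in *phot* LL, against 3.46, 3.2 and 2.29 CPM in WT LL, and an averaged log2 fold change of 2.97 ± 0.18 (SE; adjusted p = 1.82e-09, edgeR). In the 5 genes most raised in *phot* the gap between the strains was wider in HL than in LL in the fit, and no test was made of this because the rule used it.

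In the other direction, the RWP-RK gene Cre03.g149350 was the one most lowered in *phot*, with an averaged log2 fold change of -2.97 ± 0.37 (SE; adjusted p = 3.36e-06, edgeR), made of -4.03 ± 0.66 in HL and -1.91 ± 0.36 in LL. Cre17.g713025 (chromosome 17) had 0.104, 0.118 and 0.144 CPM in *phot* HL, 3 to 4 counts per library, against 1.02, 2.26 and 1.26 CPM in WT HL. In LL it had 4.70, 5.82 and 6.47 CPM in *phot*, against 12.8, 14.4 and 8.03 CPM in WT. All *phot* libraries of both genes were under the WT libraries of the same light. The averaged log2 fold change of Cre17.g713025 was -2.76 ± 0.22 (SE; adjusted p = 2.51e-08, edgeR).

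Cre09.g390726 (chromosome 9) had 1.67, 2.33 and 2.27 CPM in *phot* HL, against 2.80, 15.5 and 7.64 CPM in WT HL, where library A came close to the *phot* libraries. In LL it had 9.91, 12.6 and 15.2 CPM in *phot*, against 43.7, 47.5 and 50.8 CPM in WT. Its averaged log2 fold change was -2.43 ± 0.28 (SE; adjusted p = 1.24e-06, edgeR), with near-equal parts of -2.34 ± 0.42 in HL and -2.51 ± 0.36 in LL. Cre17.g706250 and Cre14.g632400 were lower in *phot* in the same test, by -1.98 ± 0.17 (adjusted p = 4.64e-08, edgeR) and -1.93 ± 0.10 (adjusted p = 1.9e-10, edgeR), averaged over light on the log2 scale (SE).

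Among the head of the ranking, Cre12.g489300 was higher in *phot* (1.56 ± 0.10, adjusted p = 4.11e-09), as were Cre06.g277050 (1.63 ± 0.17, adjusted p = 5.58e-07), Cre13.g604050 (1.38 ± 0.16, adjusted p = 1.1e-06) and Cre11.g467605 (0.85 ± 0.20, adjusted p = 0.00101), in averaged log2 fold changes from edgeR's quasi-likelihood test. Cre03.g192050 was lower in *phot* (-1.26 ± 0.11, adjusted p = 6.22e-08, edgeR), as was Cre06.g261400 with TMM factors (-0.68 ± 0.17, adjusted p = 0.00223, edgeR). The call for Cre06.g261400 was lost with library totals (-0.24 ± 0.19, adjusted p = 0.248, edgeR), and its strains overlapped under both scalings. The 6 that did not pass included the MYB gene Cre16.g677382 (0.31 ± 0.26, adjusted p = 0.285, edgeR) and the C3H gene Cre03.g146267 (-0.17 ± 0.26, adjusted p = 0.55, edgeR). With library totals the MYB gene stood at 0.75 (adjusted p = 0.0232, edgeR), so its call rests on the scaling. Single libraries decided it too, since without WT HL library B the MYB gene stood at 0.56 (adjusted p = 0.0291, edgeR), and without WT HL library A the C3H gene stood at -0.49 (adjusted p = 0.00394, edgeR).

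**Figure D4:**
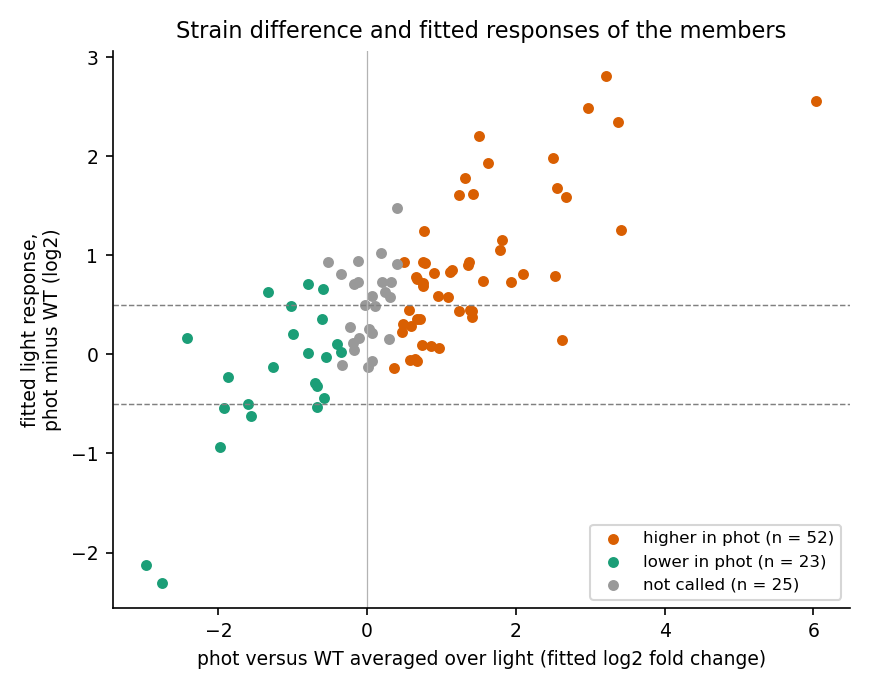
*phot* versus WT averaged over light (horizontal axis, fitted log2 fold change) and the gap between the fitted light responses, *phot* minus WT (vertical axis, log2) of the 100 genes, coloured by the edgeR call for the strain contrast: 52 higher in *phot*, 23 lower and 25 not called. The dashed lines mark 0.5 and -0.5, and genes higher in *phot* lie mostly above the upper one.

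Level and response went together across the 100 genes. Spearman's rho between the averaged strain difference and the fitted response in *phot* minus that in WT was 0.68 over 100 genes, given as a description, since genes of the same libraries are not replicates and the added 1 CPM ties both quantities. Of the 29 genes with an averaged log2 fold change above 1, 24 had a fitted response less negative in *phot* by more than 0.5. Of the 12 under -1, 5 had a response more negative in *phot* by more than 0.5. In 16 genes both the strain difference and the difference in response were within 0.5. The same counts and rho were not taken over all tested genes, and the rule limited the difference in response. They are therefore not shown to be particular to the 100 genes.

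A few of the genes lay side by side. The 98 placed on numbered chromosomes were spread over 16 of them, with none among the 168 tested genes of chromosome 15. Cre03.g152326 and Cre03.g152350 are adjacent on chromosome 3, 48 bases apart (assembly Chlamydomonas_reinhardtii_v5.5, RefSeq annotation). Cre03.g152326 had 8.13, 6.99 and 6.50 CPM in *phot* HL, against 36.2, 29.4 and 35.6 CPM in *phot* LL, and 0.728, 1.83 and 0.931 CPM in WT HL, against 9.32, 9.39 and 4.62 CPM in WT LL. Cre03.g152350 had 31.0, 25.7 and 24.3 CPM in *phot* HL, against 144, 115 and 133 CPM in *phot* LL, and 3.46, 4.54 and 3.49 CPM in WT HL, against 32.6, 34.1 and 16.3 CPM in WT LL. The 2 genes showed the same order of groups, kept 21.4% and 20.7% of LL in *phot* and 14.9% and 13.8% in WT, and were both higher in *phot*, by 1.93 ± 0.15 (adjusted p = 2.75e-08, edgeR) and 2.10 ± 0.12 (adjusted p = 8.29e-10, edgeR) on the log2 scale (SE).

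Cre14.g632400 and Cre14.g632450, 268 bases apart on chromosome 14, shared the direction of the light response and not that of the strain difference. Cre14.g632400 had 1.04, 1.03 and 0.902 CPM in *phot* HL, against 7.09, 6.34 and 6.75 CPM in *phot* LL, and 3.13, 3.72 and 4.15 CPM in WT HL, against 16.6, 14.1 and 12.1 CPM in WT LL. Cre14.g632450 had 31.6, 33.2 and 30.4 CPM in *phot* HL, against 97.3, 84.9 and 98.6 CPM in *phot* LL, and 8.41, 11.9 and 12.1 CPM in WT HL, against 45.7, 46.1 and 29.1 CPM in WT LL. The first was lower in *phot*, as given above, and the second was higher by 0.95 ± 0.08 (log2, SE; adjusted p = 7.03e-08, edgeR). In the 2 pairs separated by 1 gene, Cre16.g654950 was lower in *phot* (-1.33 ± 0.08, adjusted p = 1.84e-09, edgeR) and Cre16.g655000 higher (0.71 ± 0.15, adjusted p = 0.000476, edgeR). Cre06.g286950 was higher in *phot* (0.74 ± 0.12, adjusted p = 4.89e-05, edgeR). Its partner Cre06.g286850 was called lower with TMM factors (-0.55 ± 0.17, adjusted p = 0.00925, edgeR) but not with library totals (-0.10 ± 0.19, adjusted p = 0.623, edgeR), and its strains overlapped under both.

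Neighbours outside the 100 mostly went their own way. Of 159 tested genes next to one of the 100, 23.3% were lower in HL in both strains and 18.9% higher in both by edgeR's test, near the 19.8% and 22.9% of all tested genes. In 5 of the 159 both fitted responses were under -2, and in 3 both were above 2. The shares over all tested genes at these cut-offs were not taken, so nothing is read from these counts. The nearest of the 5 is Cre12.g558352, 64 bases from Cre12.g558300, with mean levels of 31.6 CPM in *phot* HL, against 303 CPM in *phot* LL, and 20.7 CPM in WT HL, against 306 CPM in WT LL. Its fitted response was -3.28 ± 0.29 in *phot* and -4.17 ± 0.30 in WT (log2, SE), and the others of the 5 were Cre03.g192100, Cre09.g396772, Cre10.g448500 and Cre17.g729393. Genes beside members were also looked at where they are on the study's lists, and those that follow were picked after their values were seen. Cre04.g222950 (chromosome 4, 2630180 to 2635262) had 0.938, 1.5 and 0.974 CPM in *phot* HL, against 9.11, 7.66 and 9.54 CPM in *phot* LL, and 0.510, 0.549 and 0.465 CPM in WT HL, against 4.53, 5.44 and 2.71 CPM in WT LL. Its fitted response was -2.94 ± 0.19 in *phot* and -3.30 ± 0.22 in WT (log2, SE). On one side, at a distance of 2 and 3 genes, lie *LCID* and *CCP2*, genes of the CCM induced at low CO2, with responses of 5.52 ± 0.32 and 7.69 ± 0.58 in *phot* and 5.07 ± 0.31 and 6.01 ± 0.53 in WT. On the other side, behind 1 gene, lies *CAH2*, a periplasmic carbonic anhydrase, with -1.39 ± 0.17 in *phot* and -3.26 ± 0.17 in WT. The genes directly beside Cre04.g222950 moved by less than 1 in either strain.

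**Figure D5:**
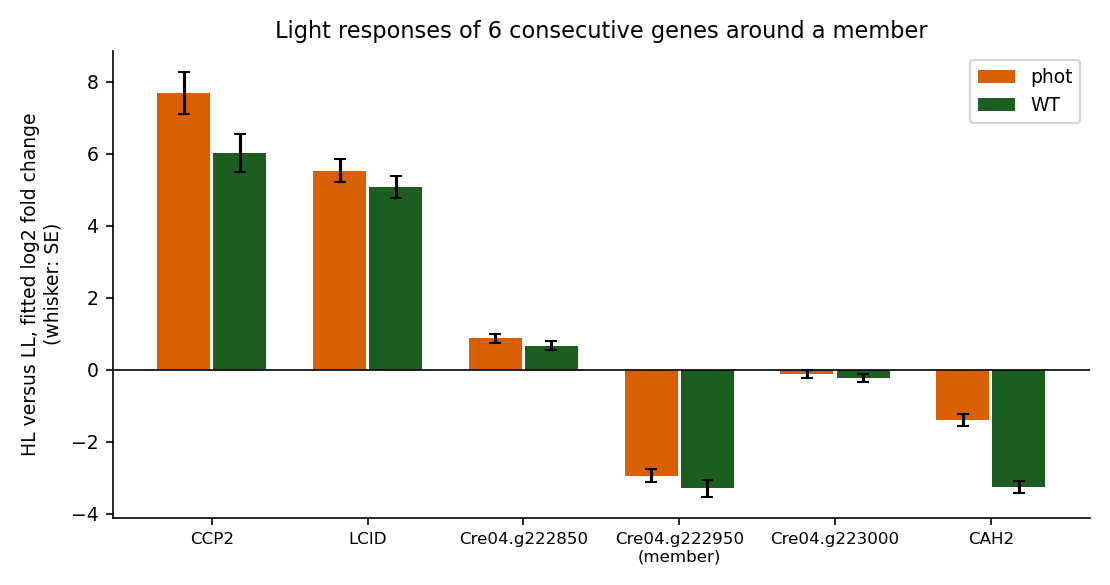
Fitted HL versus LL log2 fold change (vertical axis, whiskers SE) in *phot* and in WT for 6 consecutive genes on chromosome 4, left to right in their order on the chromosome. *CCP2* and *LCID* lie above 5 in both strains, Cre04.g222950 near -3 in both, and *CAH2* is more negative in WT (-3.26) than in *phot* (-1.39).

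Cre16.g655000 lies 15 bases from Cre16.g655050, a gene of the CCM list. The first had 1.67, 3.1 and 1.91 CPM in *phot* HL, against 15.5, 15.7 and 16.4 CPM in *phot* LL, and 0.692, 1.13 and 1.06 CPM in WT HL, against 6.59, 7.77 and 7.54 CPM in WT LL. The second went the other way, with responses of 1.61 ± 0.24 in *phot* and 2.11 ± 0.25 in WT (fitted log2, SE). Cre12.g548450, one of the last inside the rank limit, stands next to *LHCBM2*, which encodes a major light-harvesting protein of photosystem II. It had 2.01, 1.21 and 1.62 CPM in *phot* HL, against 5.53, 5.86 and 6.47 CPM in *phot* LL, and 0.0728, 0.274 and 0.266 CPM in WT HL, against 3.87, 3.33 and 1.98 CPM in WT LL. Its fitted response was -1.90 ± 0.23 in *phot* and -4.10 ± 0.33 in WT, and that of *LHCBM2* was -0.34 ± 0.12 in *phot* and -4.66 ± 0.14 in WT (log2, SE). The WT HL value of Cre12.g548450 rests on 2 to 9 counts per library. Its W (-1.75) and P (-1.41) were alike with 1 CPM added, while with none added the log2 ratios were -3.90 in WT and -1.88 in *phot*.

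The genomic span of the 100 genes, introns included, had a median of 6045.5 bases (quartiles 4207.5 and 9107.5), against 4646 bases over all tested genes. The genes within the limits but below the rank limit had a median of 4881 bases, and the 100 genes chosen by the mirrored rule, raised in HL in both strains, had 4737 bases. These spans are a description, and transcript lengths were not used here.

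Genes on both sides of the limits had close values. The last genes inside the rank limit were Cre07.g352300, Cre12.g548450 and Cre04.g224002 with sums of -3.17, -3.16 and -3.15, and the first outside were Cre02.g102776, Cre07.g314900 and Cre07.g335000 with -3.15, -3.14 and -3.12. At the limit on W minus P, Cre17.g729400 (0.45) and Cre10.g448550 (-0.48) were inside, while Cre09.g407110 (0.53) and Cre07.g354400 (-0.50) were outside.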

How the data were processed

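RNA was sequenced from 12 libraries, 3 for each combination of strain (*phot* or CC-125) and light. Per the labels and the methods, the authors made stranded mRNA libraries, aligned reads to assembly version 5 (the submitters' processing notes name STAR 2.5.3a) and counted them on the reverse strand with HTSeq. The deposited values are raw counts per gene, not normalized, for 17741 genes, of which 719 had none in any library; 0 sample columns were left out. Columns gave the group and no replicate number. The methods call the replicates biological, and p-values measure the spread between these libraries. No 2 replicates were alike within counting noise (chi-square per degree of freedom 7.69 to 67.7 over 12 pairs).

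The genes and lists were chosen with earlier results of these data known. The rule used CPM by library total with 1 added. Strain differences were tested with edgeR 4.0.16 (quasi-likelihood, TMM factors, limma 3.58.1, R 4.3.3) on the counts of genes with more than 1 CPM in at least 4 libraries, with 1 coefficient per group and Benjamini-Hochberg adjustment over 14251 genes. Scripts were tested on simulated data. Alternatives were library totals, median-of-ratios and upper-quartile factors, DESeq2 1.42.0, limma-voom, no filter, a threshold of 1 on the log2 fold change, and leaving out each library. Named were the 15 genes with the most negative sum, those on the study's lists, the 5 most raised and the 5 most lowered in *phot* without overlap, the 5 with most CPM in LL (Cre16.g652300, Cre03.g146267, Cre11.g467605, Cre10.g425050 and Cre12.g489300), edge genes and neighbouring members. Parts of the rule on product names and protein likeness were not applied. RefSeq positions matched 17738 identifiers and left 3; the assembly the authors name as version 5 was not compared with it.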

Additional observations from a re-analysis of the deposited data

How the results depend on the processing

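The selection depends on the scaling and the added CPM. Of the 100 genes, 66 were again among the top 100 with TMM factors, 60 with median-of-ratios factors, 43 with 0.1 CPM added, 37 with 5 CPM added and 81 to 95 with 1 library left out. Inside the limits stayed 66, 60 and 61 under the first 3 and 84 to 98 with 1 library left out. The median W was -2.18, -2.27 and -2.54 and the median W minus P -0.31, -0.38 and -0.28 under the same 3, and the median P was -2.26 with 0.1 CPM added. With 1 library left out the median P lay between -1.99 and -1.85. In the fit, library totals gave 13 genes lower in *phot*, medians of 0.92 (the 100) and 0.59 (all), and a median difference in response of 0.28; with 1 library left out that median lay between 0.47 and 0.81, and 27 to 45 genes were within 0.5. Against a log2 fold change of 1, 23 genes were higher in *phot* (11.5% of all) and 10 lower (10.5% of all), and 16 transcription factors were lower and 9 higher in HL in both strains. The counts of 52 and 23 were 47 to 53 and 23 to 29 with 1 library left out. The causes were not tested.

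Of 22 named genes, 14 kept direction and call in the strain contrast under all 19 alternatives. Of the other 8, Cre06.g261400 lost its call with library totals (-0.24) and against a log2 fold change of 1, and Cre11.g467605 lost it against that fold change only. The 6 that changed sign were all uncalled with TMM factors and all libraries. Library totals gave 0.25 for Cre03.g146267, 0.26 for Cre12.g558300 and 0.098 for Cre10.g456600 (log2). Cre10.g425050 and Cre16.g673100 stood at -0.050 and -0.051 with median-of-ratios factors, -0.016 and -0.017 without a filter, and -0.049 and -0.041 with DESeq2. Library totals put both past the threshold as higher in *phot*. The values were 0.49 (adjusted p = 0.0094, edgeR) for Cre10.g425050 and 0.50 (adjusted p = 0.0485, edgeR) for Cre16.g673100. With 1 library left out the values lay between -0.49 and 0.053 for Cre03.g146267, -0.45 and 0.028 for Cre12.g558300, -0.10 and 0.15 for Cre10.g425050, -0.18 and 0.27 for Cre16.g673100 and -0.0092 and 0.56 for Cre16.g677382. Without WT HL library A, Cre12.g558300 (-0.45) and Cre10.g456600 (-0.61) passed the threshold, the second also without *phot* HL library A (-0.51) or *phot* LL library C (-0.52), and Cre16.g673100 (0.27) passed without WT HL library B. No paired analysis was possible because the columns carry no replicate numbers. Features of promoters and proteins were not analysed here. Depth limits genes with HL means of a few counts per library, such as Cre17.g713025 in *phot*.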
